A study of Mus musculus with 10 samples.

Results

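The genes of the liver sinusoid described here are 10: 8 genes that mark sinusoidal endothelial cells (Stab2, Lyve1, Clec4g, Fcgr2b, Kdr, Pecam1, Gpr182 and Eng) and the adhesion molecule genes Vcam1 and Icam1. They were taken by symbol from a count table of 19764 genes. All 10 passed the filter on low counts, as did 12558 genes in all. RNA came from homogenised liver tissue of female mice fasted for 8 h from ZT12. GRMAC mice carried a floxed glucocorticoid receptor gene (GRflox) and LysM-Cre+/-, which drives Cre in macrophages and the rest of the myeloid lineage, and GRflox littermates carried the floxed gene without Cre (5 libraries each). An effect of Cre itself and of the receptor's loss cannot be told apart in this design, and the labels do not state that each library is a separate mouse, so p-values measure the spread between libraries.

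Sinusoidal endothelial cells line the liver capillaries. They have open pores and no continuous basement membrane, and they take up waste macromolecules from blood with scavenger receptors and lectins. Like other endothelium they carry receptors for vascular growth factors, and they display adhesion molecules that hold passing leukocytes. Vcam1 and Icam1 are textbook targets of NF-kappaB, the transcription factor of inflammatory signals. Neither is restricted to endothelium, since Kupffer cells, the resident macrophages of the liver, and stellate cells can also make Vcam1.

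The libraries held 23258884 to 27692528 counts, so 3 counts in a library correspond to 0.111 to 0.129 CPM (a gene's counts over the library's TMM-scaled total). The targeted gene, Nr3c1, had 72.8 ± 7.14 CPM in the GRflox group against 82.5 ± 7.75 CPM in the GRMAC group (SD, n = 5), and a count over the whole gene does not check the deletion of an exon. One library stood apart. In GRMAC 2, 7 of the 8 endothelial genes had their lowest value of all 10 libraries, whereas 13.7% of all tested genes did. The values of the 10 genes are therefore given with and without GRMAC 2. Because this library was singled out for its low endothelial genes, leaving it out raises their GRMAC means by choice, and their values without it are a description with no test. In bulk RNA, fewer endothelial cells and less RNA per cell cannot be told apart. Endothelial RNA was present in every library: the 29 other sinusoidal endothelial markers found in the table summed to 471.6 to 537.4 CPM in GRflox, to 369.5 CPM in GRMAC 2 and to 465.7 to 552.1 CPM in the remaining GRMAC libraries, and none of them was at 0 in every library.

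Vcam1 was the gene among the 10 with the largest difference between the genotypes, and it was lower in GRMAC. Stab2, Kdr, Lyve1 and Icam1 had higher means in GRMAC, and Clec4g, Fcgr2b, Pecam1, Gpr182 and Eng differed by less than 8% in their means. With edgeR and adjustment over all tested genes none of the 10 passed, where 22 of 12558 genes (0.175%) did, 7 of them (0.0557%) as lower in GRMAC. At an unadjusted p under 0.05 there were 3 of the 10 (Vcam1, Icam1 and Stab2), against 16.3% of all tested genes. The authors' deposited DESeq2 table gives 1 of the 10, Vcam1, as lower in the knockout, and 190 of its 12737 genes with an adjusted p (1.49%) as lower. limma-voom passed none of the 10.

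**Figure D1:**
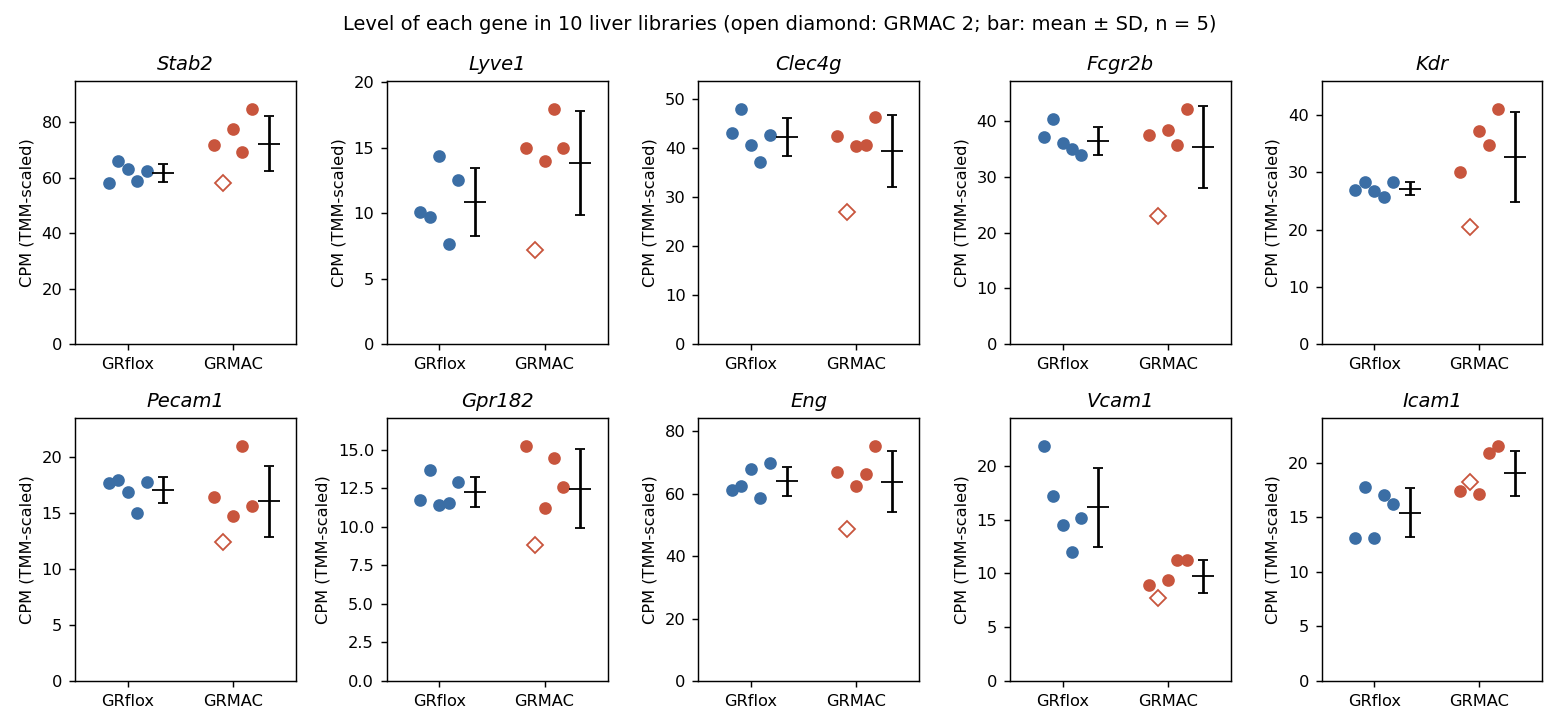
Level of each of the 10 genes (vertical axis, TMM-scaled CPM) in the 5 GRflox and 5 GRMAC libraries (horizontal axis), with the mean and SD of each group as a bar and GRMAC 2 as an open diamond. Vcam1 reached at most 11.2 CPM in GRMAC and was at least 11.9 CPM in GRflox, while GRMAC 2 lay lowest for 7 of the 8 endothelial genes.

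Vcam1 encodes the endothelial ligand of the leukocyte integrin alpha-4 beta-1 (NM_011693, mm10 chromosome 3, 116110020 to 116129688, minus strand). In GRflox liver it was at 21.8, 17.2, 14.5, 11.9 and 15.2 CPM in libraries 1 to 5, and in GRMAC liver at 8.96, 7.70, 9.40, 11.2 and 11.2 CPM. Every GRMAC library lay below every GRflox library. The gap between the groups was narrow, since GRflox 4 lay just above GRMAC 4 and 5. The means were 16.1 ± 3.70 and 9.71 ± 1.53 CPM (SD, n = 5), so that the GRMAC mean was 60.2% of the GRflox mean.

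The log2 fold change of Vcam1 was −0.73 ± 0.15 (SE), with an unadjusted p = 0.000431 in edgeR and adjusted p = 0.0649, which missed the threshold of 0.05. It had the 78th lowest p of the 12558 genes. A two-sided exact permutation test of the CPM values gave p = 0.00794, the smallest that 5 against 5 libraries allow, and 2.01% of the tested genes lay below GRflox in all 5 GRMAC libraries. The authors' deposited table gives a log2 fold change of −0.73 with adjusted p = 0.00131. Without GRMAC 2 the difference was −0.65 ± 0.16 (edgeR, adjusted p = 0.109), and the GRMAC mean was 63.3% of GRflox. The call therefore depends on the tool: it was made by DESeq2 and missed by edgeR and limma-voom at nearly the same fold change. In simulated data 11.9% of the DESeq2 calls were false, against 5.23% with edgeR and 5.78% with limma-voom. Leaving out GRflox 1, the library with the highest value, gave −0.60, and leaving out GRflox 4, the lowest GRflox library, gave −0.82 and an adjusted p of 0.0435 (edgeR). Removing the lowest GRflox value widens the difference by construction, so that pass is no separate support. The fit without GRflox 4 passed 26 genes in all.

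Icam1 encodes the ligand of the leukocyte integrins LFA-1 and Mac-1 (NM_010493, chromosome 9, 21015960 to 21028796, plus strand). It was at 13.1, 17.7, 13.1, 17.0 and 16.2 CPM in GRflox 1 to 5 and at 17.5, 18.2, 17.1, 20.9 and 21.6 CPM in GRMAC 1 to 5. GRMAC 2, 4 and 5 lay above the highest GRflox library, and the other two lay between GRflox 4 and GRflox 2. The log2 fold change was 0.30 ± 0.10 (edgeR, unadjusted p = 0.0121, adjusted p = 0.183; exact permutation test, p = 0.0317), and 0.32 ± 0.11 without GRMAC 2 (exact permutation test, p = 0.0556). Icam1 thus lay on the other side of 0 from Vcam1, and it was not low in GRMAC 2. In CPM, which is not corrected for length, Vcam1 was at 70.0% to 167% of Icam1 in the GRflox libraries and at 42.3% to 55.0% in the GRMAC libraries. These shares compare libraries and not the levels of the genes.

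The 250 bases before the start of transcription are shown for Icam1, as the adhesion molecule of the pair with a RefSeq promoter here, and for Kdr, as the endothelial gene with an NF-kappaB match. They come from RefSeq on GRCm38.p6, the assembly of mm10, which holds 6 of the 10 genes (Clec4g, Eng, Fcgr2b, Icam1, Kdr and Stab2). Both are written 5′ to 3′ on the strand of the gene, chr9:21015690-21015939 (plus strand) and chr5:75978456-75978705 (minus strand), with capitals for the match. These windows end some bases upstream of the gene starts printed elsewhere here (21015960 for Icam1, 75978428 for Kdr). Distances are counted from the start that follows each window.
Icam1: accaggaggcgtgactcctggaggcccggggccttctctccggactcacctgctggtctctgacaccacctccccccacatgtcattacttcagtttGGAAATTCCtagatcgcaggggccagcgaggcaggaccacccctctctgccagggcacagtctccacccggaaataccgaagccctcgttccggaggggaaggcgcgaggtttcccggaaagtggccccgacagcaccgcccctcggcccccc
Kdr: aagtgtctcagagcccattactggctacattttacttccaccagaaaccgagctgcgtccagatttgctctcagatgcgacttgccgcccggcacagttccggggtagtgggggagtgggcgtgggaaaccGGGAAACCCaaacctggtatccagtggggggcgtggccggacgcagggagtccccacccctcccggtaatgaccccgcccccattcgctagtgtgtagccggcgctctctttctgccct

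Both strands of the 6 windows were searched. GGGNTTNCC, a form of the NF-kappaB motif, was in Kdr alone of the 6, on the strand opposite to the gene, where the printed match begins 119 bases before the start, and in 3.99% of 32851 promoter windows of the same length. GGAAANTCC, another form added after the Icam1 sequence had been seen, was in Icam1 alone, 153 bases before the start, and in 1.07% of windows. AGAACA, one arm of the glucocorticoid receptor motif, was in Fcgr2b alone, 191 bases before the start, and in 16.1% of windows. AGATAA, the motif of GATA factors, was in 9.99% of windows, and ACAGGAAG, a motif of ETS factors, was in 2.90%. The 6 windows held neither. These matches describe letters and do not show binding. A window without a match says nothing about a factor.

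Stab2 and Lyve1 encode receptors that bind hyaluronan, stabilin-2 being a scavenger receptor that clears it from blood. Stab2 (NM_138673, chromosome 10, 86841210 to 87007942) was at 58.1, 66.2, 63.2, 59.0 and 62.5 CPM in GRflox 1 to 5 and at 71.9, 58.3, 77.5, 69.2 and 84.8 CPM in GRMAC 1 to 5. GRMAC 1, 3, 4 and 5 lay above every GRflox library, and GRMAC 2 lay just above the lowest GRflox library. The log2 fold change was 0.23 ± 0.08 with all libraries (edgeR, unadjusted p = 0.0184, adjusted p = 0.204; exact permutation test, p = 0.0556) and 0.30 ± 0.07 without GRMAC 2.

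Lyve1 (NM_053247, chromosome 7, 110850607 to 110862953) spread most among the endothelial genes. It was at 10.1, 9.74, 14.4, 7.66 and 12.5 CPM in GRflox 1 to 5 and at 14.99, 7.20, 14.0, 17.9 and 15.01 CPM in GRMAC 1 to 5. GRMAC 2 was the lowest library and GRMAC 4 the highest, and the groups overlapped. The log2 fold change was 0.35 ± 0.23 (edgeR, adjusted p = 0.499) and 0.51 ± 0.16 without GRMAC 2.

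Clec4g, which encodes the C-type lectin LSECtin, and Fcgr2b, which encodes the inhibitory Fc gamma receptor that takes up immune complexes, lay close together in the 2 genotypes. Clec4g (NM_029465, chromosome 8, 3716071 to 3720651) was at 43.0, 47.9, 40.5, 37.2 and 42.6 CPM in GRflox 1 to 5 and at 42.3, 27.0, 40.5, 40.5 and 46.3 CPM in GRMAC 1 to 5. Apart from GRMAC 2, the GRMAC values fell within the GRflox range. Fcgr2b (NM_010187, chromosome 1, 170960559 to 170976071) was at 37.1, 40.4, 36.0, 34.9 and 33.9 CPM in GRflox 1 to 5 and at 37.5, 23.01, 38.4, 35.7 and 42.1 CPM in GRMAC 1 to 5. Their log2 fold changes were −0.10 ± 0.12 and −0.05 ± 0.13 with all libraries, and 0.01 ± 0.07 and 0.08 ± 0.07 without GRMAC 2, so both signs turned with that library. B cells also make Fcgr2b, and the 9 B and plasma cell markers in the table summed to 5.07 to 6.96 CPM in GRflox and 6.66 to 9.82 CPM in GRMAC; their part in its level was not tested.

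Kdr encodes the main signalling receptor for vascular endothelial growth factor (NM_010612, chromosome 5, 75933270 to 75978428). It was at 26.9, 28.2, 26.8, 25.6 and 28.3 CPM in GRflox 1 to 5, the narrowest spread of the 10 genes in GRflox (4.09% of the mean), and at 30.0, 20.5, 37.1, 34.8 and 41.0 CPM in GRMAC 1 to 5. GRMAC 1, 3, 4 and 5 lay above every GRflox library, and GRMAC 2 lay below all GRflox libraries. The log2 fold change was 0.27 ± 0.15 (edgeR, adjusted p = 0.401; exact permutation test, p = 0.135) and 0.40 ± 0.08 without GRMAC 2. With that library left out, Stab2 and Kdr did not overlap between the genotypes, and 402 of the tested genes (3.20%) were higher in this way. None of the 10 genes passed edgeR without GRMAC 2, where 16 of 12634 genes (0.127%) did. Leaving out GRMAC 2, singled out for low endothelial genes, raises such genes in GRMAC by choice. The separation of Stab2 and Kdr is therefore a description with no test.

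Eng encodes endoglin, the endothelial co-receptor for BMP9 and TGF-beta (NM_007932, chromosome 2, 32646595 to 32682669). It was at 61.2, 62.6, 67.8, 58.5 and 69.9 CPM in GRflox 1 to 5 and at 66.9, 48.7, 62.4, 66.3 and 75.3 CPM in GRMAC 1 to 5, with means of 64.0 ± 4.73 and 63.9 ± 9.72 CPM (SD, n = 5). Pecam1, which encodes an adhesion molecule of endothelial junctions (NM_008816, chromosome 11, 106654213 to 106715281), was at 17.7, 18.0, 16.9, 15.1 and 17.8 CPM in GRflox 1 to 5 and at 16.4, 12.4, 14.8, 21.0 and 15.7 CPM in GRMAC 1 to 5. Gpr182, which encodes an atypical chemokine receptor (NM_007412, chromosome 10, 127749602 to 127751798), was at 11.7, 13.7, 11.4, 11.6 and 12.9 CPM in GRflox 1 to 5 and at 15.3, 8.85, 11.2, 14.4 and 12.6 CPM in GRMAC 1 to 5. The genotypes overlapped for these 3 genes, and the GRMAC libraries spread more widely than the GRflox libraries. Their log2 fold changes were 0.00 ± 0.10 for Eng, −0.09 ± 0.12 for Pecam1 and 0.02 ± 0.13 for Gpr182, and 0.09 ± 0.07, −0.01 ± 0.10 and 0.13 ± 0.10 without GRMAC 2.

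**Figure D2:**
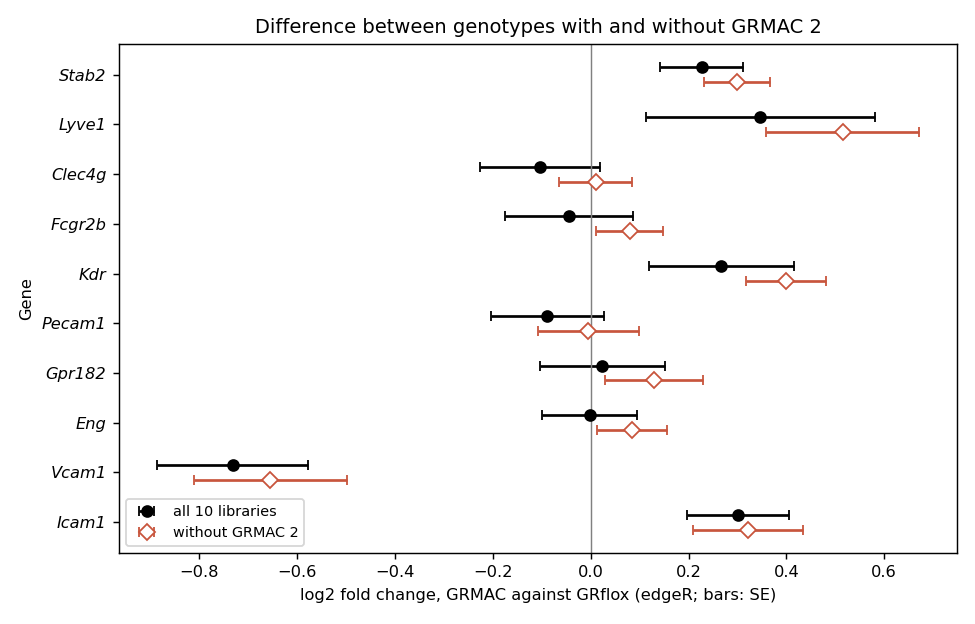
Log2 fold change of GRMAC against GRflox (horizontal axis, edgeR) for the 10 genes (vertical axis), with SE bars, from all 10 libraries (filled circles) and without GRMAC 2 (open diamonds). Vcam1 stays on the left at −0.73 and −0.65, and the 8 endothelial genes shift to the right without GRMAC 2, to between −0.01 and 0.51.

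The 8 endothelial genes had a median log2 fold change of 0.01 with all libraries, beside 0.00 over all tested genes, and 4 of them were positive. Without GRMAC 2 the median was 0.11, beside 0.01 over all genes, and 7 were positive. These genes mark the same cells, so their values are not independent of each other. Relative to the mean of the other 4 GRMAC libraries, GRMAC 2 was lower by log2 values from −0.38 (Stab2) to −1.11 (Lyve1), with a median of −0.62 where all tested genes had −0.01. Vcam1 was also lower there (−0.41), and Icam1 was at −0.08.

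**Figure D3:**
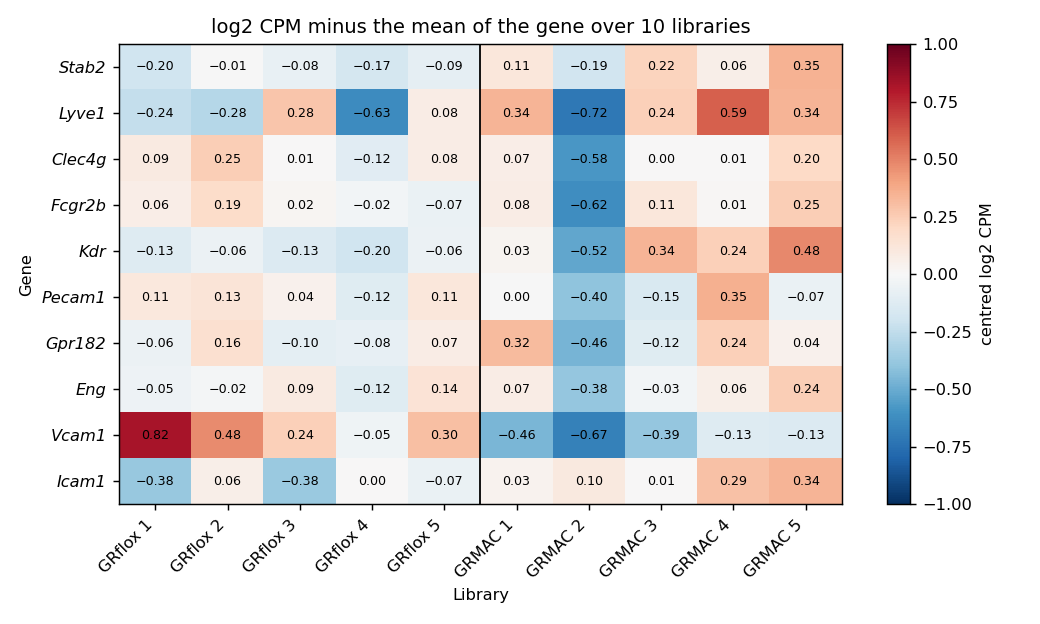
Log2 CPM of each of the 10 genes (rows) in each library (columns), minus the gene's mean over the 10 libraries, on a scale from −1 to 1. The column of GRMAC 2 is low for the endothelial genes and Vcam1 but not for Icam1 (0.10), and Vcam1 is negative in every GRMAC library.

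Other genes of endothelial cells set GRMAC 2 apart in the same way. Of 26 tested sinusoidal endothelial markers outside the 10 genes, 15 had their lowest value in GRMAC 2, as did 18 of 35 general endothelial genes and 9 of 23 markers of stellate cells and fibroblasts, against 3 of 21 Kupffer cell markers and 2 of 18 hepatocyte markers. The list score, the mean over a list of log2 CPM centred per gene, was −0.34 for the other sinusoidal endothelial markers in GRMAC 2 (−0.06 to 0.18 elsewhere), −0.36 for general endothelial genes (−0.08 to 0.23) and −0.26 for stellate cell markers (−0.11 to 0.17). It was 0.00 for hepatocyte markers (−0.12 to 0.09) and −0.12 for Kupffer cell markers (−0.24 to 0.23), both inside the range of the other libraries, and 0.23 for cholangiocyte markers (−0.27 to 0.08), above it. The summed CPM of the hepatocyte markers, in which genes with high counts weigh most, was lowest in GRMAC 2, at 135900. It was 138900 to 155900 in GRflox and 149300 to 159500 in the other GRMAC libraries.

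**Figure D4:**
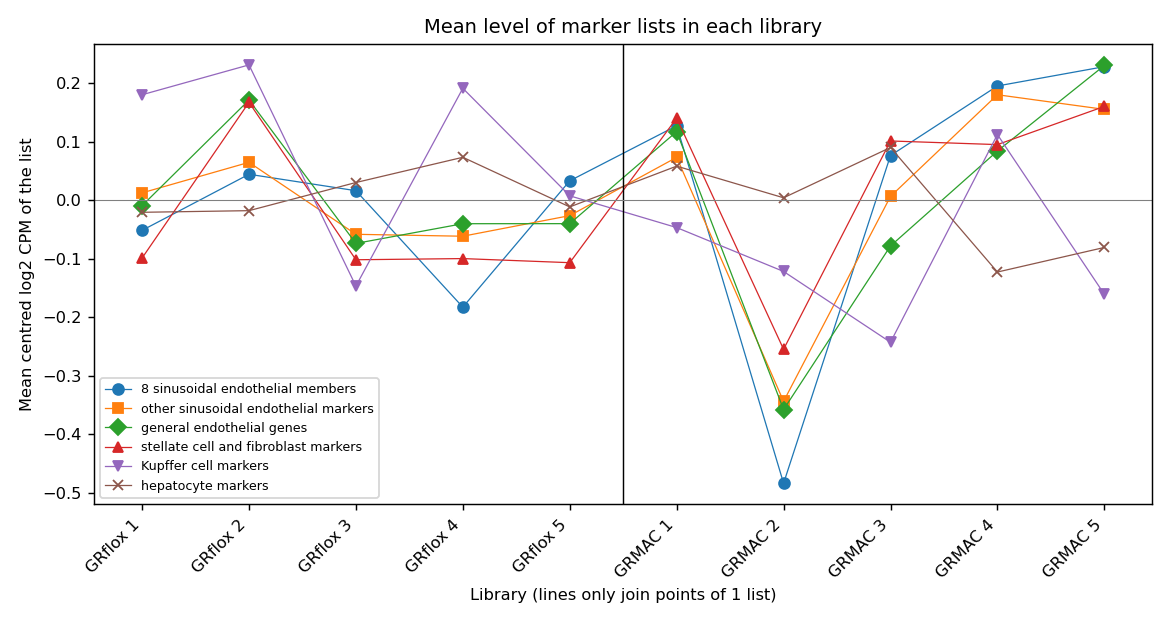
Mean centred log2 CPM (vertical axis) of 6 gene lists in each library (horizontal axis). The 3 endothelial lists and the stellate cell list drop together in GRMAC 2, to between −0.26 and −0.48, while hepatocyte and Kupffer cell markers stay inside the range of the other libraries.

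Between the genotypes, no other sinusoidal endothelial marker (26 tested) and no general endothelial gene (35 tested) passed edgeR over all genes, with medians of 0.04 and 0.00, and of 0.13 and 0.10 without GRMAC 2. At an unadjusted p under 0.05 there were 2 higher and 1 lower in each list. Over all tested genes the share was 16.3% in both directions, and 8.58% as higher. Kcnj10, a potassium channel gene, had the lowest p of the first list (0.462 ± 0.0775 to 0.990 ± 0.332 CPM, log2 fold change 1.10 ± 0.27, edgeR, adjusted p = 0.0875), and the authors' deposited table lists it as higher (adjusted p under 0.05). Clec1b, which encodes the lectin CLEC-2, was at 0.37 ± 0.13. In the second list Thbd, which encodes the anticoagulant thrombomodulin, was at −0.63 ± 0.24 and S1pr1, a receptor for sphingosine 1-phosphate, at 0.41 ± 0.16.

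Vcam1 was also stated against the endothelial genes, with each gene centred over the 10 libraries, so that only the difference between the genotypes carries information. Its centred log2 CPM minus the mean of the 8 endothelial genes was 0.87, 0.43, 0.22, 0.14 and 0.26 in GRflox 1 to 5 and −0.58, −0.19, −0.46, −0.33 and −0.36 in GRMAC 1 to 5. The groups did not overlap, and their means differed by −0.77, or by −0.82 without GRMAC 2. Vcam1 was at 79.3% to 124% of Pecam1 in CPM in GRflox and at 53.6% to 71.7% in GRMAC. CPM is not corrected for length, so these shares compare libraries and not the levels of the genes. With the score of the 26 other endothelial markers as a covariate in edgeR, the log2 fold change of Vcam1 was −0.77 ± 0.13 (adjusted p = 0.0412). It passed there as 1 of 22 genes. In the same fit Stab2 was at 0.20 ± 0.07, Kdr at 0.19 ± 0.08 and Lyve1 at 0.22 ± 0.17, and none of them passed.

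Markers of Kupffer cells and stellate cells were described in the same way, since both cells can make Vcam1. A marker score as a covariate in bulk RNA cannot show in which cells Vcam1 differed, and this was not tested. Of 21 tested Kupffer cell markers 1 passed edgeR, Cd163, a haemoglobin scavenger receptor (28.7 ± 7.81 to 3.07 ± 0.493 CPM, log2 fold change −3.22, adjusted p = 2.55e-05). At an unadjusted p under 0.05 there were 4 higher and 3 lower, beside 16.3% of all tested genes in both directions. The authors' deposited table has 1 of these markers as higher (Cd5l) and 3 as lower (Cd163, Cd207 and Nr1h3), beside 234 and 190 of its 12737 genes. Cd5l, which encodes a secreted macrophage protein, was at 46.2 ± 7.27 and 67.8 ± 12.5 CPM (0.55 ± 0.14, edgeR, adjusted p = 0.0928). Nr1h3, which encodes the nuclear receptor LXR alpha, was at −0.16 ± 0.05, and the macrophage genes Cd68 and Folr2 were at 0.42 ± 0.15 and 0.41 ± 0.14. The median of the list was 0.04, and its 22 members in the table, none at 0 in every library, summed to 654.9 to 863.6 CPM in GRflox and 750.9 to 885.2 CPM in GRMAC. Genes with high counts weigh most in this sum, so it does not measure Kupffer cell number. Among them Slc40a1 was at 179.6 ± 36.8 and 228.5 ± 28.3 CPM and Id3 at 66.3 ± 24.5 and 94.2 ± 54.8 CPM. Nr1h3 went the other way, at 122.0 ± 3.2 and 109.4 ± 3.6 CPM. Clec4f (93.4 ± 10.8 and 98.0 ± 13.3 CPM) and Timd4 (5.69 ± 0.527 and 6.16 ± 0.390 CPM), which mark resident Kupffer cells, had log2 fold changes of 0.07 ± 0.10 and 0.11 ± 0.10. Marco, also on the list, was at −0.85 ± 0.40 (7.02 ± 3.95 and 3.89 ± 1.83 CPM). Of the 21 tested markers 11 were positive and 10 negative. Cd207 was at −1.91 ± 0.34 (adjusted p = 0.0543, edgeR) and passed without GRMAC 2 (−2.19, adjusted p = 0.026). With Kupffer cell markers other than Cd163 and Cd207 as a covariate, Vcam1 was at −0.76 ± 0.16 (adjusted p = 0.0901, edgeR).

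Of 23 stellate cell and fibroblast markers none passed edgeR, and none did in the authors' deposited table. Their median was 0.12, and 0.19 without GRMAC 2. Unadjusted p was under 0.05 for 3 as higher and 0 as lower, beside 16.3% of all tested genes in both directions. The markers summed to 450.7 to 546.2 CPM in GRflox, to 424.0 CPM in GRMAC 2 and to 531.1 to 600.2 CPM in the other GRMAC libraries. Cygb, which encodes cytoglobin of stellate cells, was at 0.30 ± 0.10. With these markers as a covariate Vcam1 was at −0.82 ± 0.16 (adjusted p = 0.11, edgeR), and the 8 endothelial genes had lower fold changes than without the covariate. Stab2, Kdr and Lyve1 were at 0.14 ± 0.07, 0.09 ± 0.11 and 0.14 ± 0.24, nearer to 0, and Clec4g and Fcgr2b at −0.26 ± 0.07 and −0.22 ± 0.07, farther from 0 (edgeR, adjusted p = 0.157 and 0.235).

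**Figure D5:**
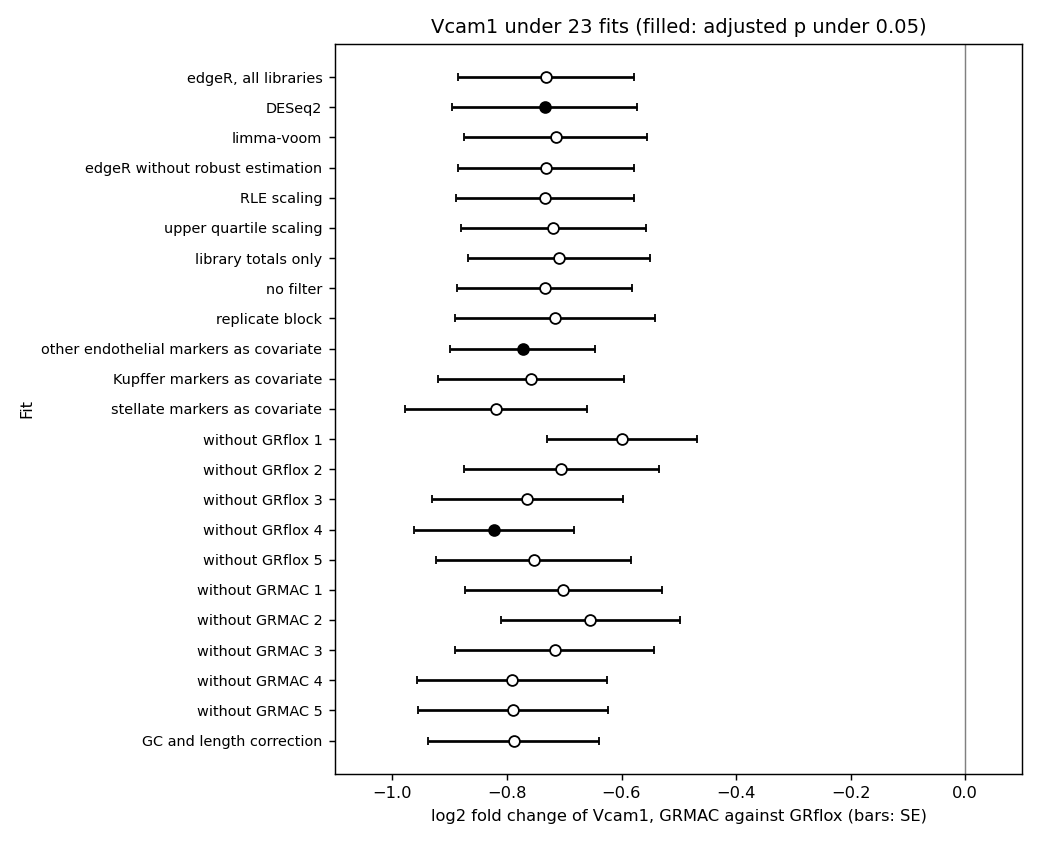
Log2 fold change of Vcam1 (horizontal axis, with SE bars) in 23 fits (vertical axis), with filled circles where the adjusted p was under 0.05. All 23 lie between −0.82 and −0.60, and the filled ones are DESeq2, the endothelial covariate and the fit without GRflox 4.

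The integrins that bind these adhesion molecules are carried by leukocytes and other cells. Itga4 and Itgb1, which together encode the main receptor of Vcam1, were at 36.2 ± 4.48 and 37.1 ± 2.22 CPM and at 178.7 ± 6.0 and 182.2 ± 3.95 CPM in GRflox and GRMAC (SD, n = 5), with log2 fold changes of 0.03 ± 0.08 and 0.03 ± 0.05. Itgal and Itgb2, which encode LFA-1, were at 0.08 ± 0.14 and 0.23 ± 0.16, and Itgam, of Mac-1, at −0.52 ± 0.21 (1.36 ± 0.352 and 0.953 ± 0.0431 CPM). Itga9, another integrin chain that can bind Vcam1, was at 11.6 ± 1.14 and 15.5 ± 2.42 CPM (0.41 ± 0.11, edgeR, adjusted p = 0.0981); the authors' deposited table lists it as higher. None of the 22 tested genes of leukocyte adhesion passed edgeR (median 0.07, and 0.12 without GRMAC 2). Unadjusted p was under 0.05 for 3 as higher and 1 as lower, beside 16.3% of all tested genes in both directions. Msn, which encodes moesin, was at 0.30 ± 0.09. The selectin gene Sele and the addressin gene Madcam1 lay below the filter on low counts.

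Of 25 tested genes of NF-kappaB and cytokine responses none passed edgeR (median 0.06). Higher at an unadjusted p under 0.05 were 5 and lower 1, beside 16.3% of all tested genes in both directions. Rel, which encodes the NF-kappaB subunit c-Rel, was at 2.0 ± 0.377 and 3.27 ± 0.497 CPM (0.71 ± 0.16, edgeR, adjusted p = 0.0756). The authors' deposited table lists it as higher. Tnfrsf1b, a receptor for TNF, was at 52.7 ± 6.96 and 42.5 ± 6.02 CPM (−0.31 ± 0.11). Tnf, Ccl2, Cxcl2 and Il6 lay below the filter on low counts.

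Genes of the growth factor pathways around Kdr and Eng were described from 2 lists. None of 16 tested VEGF and angiopoietin genes passed edgeR (median 0.05), and none is past 0.05 in the authors' deposited table. Higher at an unadjusted p under 0.05 was 1 and lower 0, beside 16.3% of all tested genes in both directions. Vegfa, the ligand of Kdr, was at 250.6 ± 15.2 and 267.6 ± 34.4 CPM (0.09 ± 0.08). Angpt1, a ligand of the endothelial receptor Tie2, was at 0.64 ± 0.20 and Nrp1, a VEGF co-receptor, at 0.27 ± 0.18. In the list of BMP and TGF-beta genes 24 of 29 were positive, beside 50.2% of all tested genes (median 0.19, and 0.20 without GRMAC 2). At an unadjusted p under 0.05 there were 4 higher and 0 lower, where 8.58% of all tested genes were higher, and none passed edgeR. Tgfbr1, a TGF-beta receptor, was at 33.0 ± 1.69 and 39.3 ± 2.99 CPM (0.25 ± 0.06, edgeR, adjusted p = 0.0895). The authors' deposited table lists it as higher. Gdf2, which encodes BMP9, was at 16.3 ± 2.60 and 17.9 ± 2.19 CPM (0.14 ± 0.11), and its receptor gene Acvrl1 at 4.54 ± 0.551 and 4.55 ± 0.864 CPM (0.00 ± 0.15). Among 19 genes of scavenging and endocytosis none passed edgeR (median −0.04). Unadjusted p was under 0.05 for 1 as higher and 1 as lower, beside 16.3% of all tested genes in both directions. The clathrin light chain gene Cltb was at −0.23 ± 0.07 and the adaptor gene Dab2 at 0.25 ± 0.10.

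Levels can be compared between genes only per length, here as mean CPM per kb of a GENCODE transcript, and it is not stated whether introns were counted, so this order is approximate. In GRflox liver Clec4g was highest (33.99 ± 3.14 CPM per kb), then Fcgr2b (24.9 ± 1.72), Eng (18.7 ± 1.38), Stab2 (7.51 ± 0.400) and Icam1 (6.09 ± 0.872). They were followed by Pecam1 (5.20 ± 0.365), Vcam1 (4.65 ± 1.07), Kdr (4.58 ± 0.188), Lyve1 (3.76 ± 0.902) and Gpr182 (3.10 ± 0.250). From Icam1 down, neighbours in this order overlapped within their SDs, and the first 4 genes did not. In GRMAC liver Vcam1 was lowest of the 10, at 2.80 ± 0.442 CPM per kb, with Gpr182 next at 3.15 ± 0.648.

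Genes that followed Vcam1 most closely over the 10 libraries, among 11566 with a mean of at least 1 CPM, were not among the other 9 genes. Slc25a22, a mitochondrial glutamate carrier gene, was first (Pearson's r = 0.95, Spearman's rho = 0.98, 10 libraries), at 646 ± 134 and 412 ± 68.2 CPM. Slc25a47, another mitochondrial carrier gene (r = 0.94), and Nol12, a nucleolar protein gene (0.94), came next, and Acot8, a peroxisomal thioesterase gene (0.92), was also among the closest 5. The r of these 4 genes include the difference between genotypes; centred within genotype they were 0.79 to 0.88, and without GRflox 1 and GRMAC 2, the libraries farthest from the median of Vcam1, they were 0.88 to 0.91. They are the highest of many and carry no test. Genes that followed the mean of the 8 endothelial genes were Mmrn2, an endothelial matrix protein gene (r = 0.97), Gimap6 (0.95), the thrombin receptor gene F2r (0.95), the endothelial phosphatase gene Ptprb (0.93) and Tab1 (0.93); without GRMAC 2 their r was 0.78 to 0.94, and without GRflox 4 as well, the next farthest library, 0.60 (Tab1) to 0.92 (F2r).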

How the data were processed

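Polyadenylated RNA of liver tissue was sequenced in 10 libraries (5 GRflox, 5 GRMAC). The authors deposited whole-number read counts per gene, with 1 RefSeq transcript in each row. HISAT2 2.1.0, mm10 and DESeq2 1.24.0 are named in the submitters' processing notes, and the counting program, strand setting and use of introns are not given in the sources used here. A second deposited table gives log2 fold changes and adjusted p-values, per the file headers; 10 per-library columns in it were not used. Columns were matched to titles by genotype and number. Starts are printed with the first base as 1.

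Genes with few counts were removed with filterByExpr (12558 of 19764 left, 0.0348% of counts removed), and TMM set the scaling between libraries. The genotypes were compared with edgeR 4.0.16 in R 4.3.3 (quasi-likelihood test, robust option), with p adjusted by Benjamini-Hochberg over all tested genes. The SE is the size of the log2 fold change over the square root of F. Single genes were also compared by a two-sided exact permutation test. Log2 CPM used a prior count of 2. Transcript length and GC content came from GENCODE M21 for 99.9% of tested genes. Alternatives were DESeq2 1.42.0, limma-voom (limma 3.58.1), other scalings, no filter, a replicate block, 3 marker covariates, leaving out each library and, added after the data were seen, a GC and length correction. The fits were tested first on simulated data in which 200 of 12558 genes were changed. Of the genes changed by a fold of 1.5, edgeR recovered 62.7%, DESeq2 71.6% and limma-voom 61.2%. False calls were 5.23%, 11.9% and 5.78% of all calls.

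The 10 genes and the lists were chosen with earlier results of these data known. The genes named are the 10; from each list those past the threshold or else the 2 with the lowest p; the binding partners of the 10; Nr3c1; and the 5 genes most like Vcam1 (1 of which is not reported here) and most like the endothelial mean. Clec4f, Timd4, Cd207, Cd5l, Nr1h3, Cd68, Folr2, Slc40a1, Id3 and Marco, the genes under the filter and B cell sums were added after values were seen. Lists of cholangiocyte, T and NK cell, monocyte and neutrophil, and red blood cell markers were also fixed. Of these, and of the hepatocyte and B cell lists, none had a member past the threshold in edgeR; their medians were 0.05, −0.46, −0.18, −0.02, 0.07 and 0.56, over 9, 3, 8, 1, 18 and 6 tested members.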

Additional observations from a re-analysis of the deposited data

Results flagged for a closer look

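In 52 groups of 5 values, 4 had 1 library far from the other 4, where chance gives about 1 in 20. The mean of the 8 sinusoidal endothelial genes was −0.484 in GRMAC 2, below the other GRMAC libraries (0.0761 to 0.228); this library had already been singled out for low endothelial markers, so the value restates that choice. The stellate cell and fibroblast score of GRMAC 2 was −0.255 (others 0.0948 to 0.16). In GRflox 2 the score of general endothelial genes was 0.171 (others −0.0741 to −0.00962) and the stellate cell and fibroblast score was 0.167 (others −0.107 to −0.0991). No single one of the 10 genes had such a library.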

How the results depend on the processing

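Vcam1 was negative in all 22 alternatives, from −0.82 to −0.60 (both ends from leaving out 1 library, GRflox 4 and GRflox 1), and passed in 3: DESeq2 (−0.73), the endothelial covariate (−0.77) and without GRflox 4. The count of the 10 genes past the threshold was 1 in these and 0 in the rest, so 0 to 1 when a library was left out. Over all genes, 424 passed with DESeq2, 22 with the endothelial covariate and 26 without GRflox 4. Of these, 22, 18 and 12 were among the 22 of the main fit. The cause of the differing calls was not tested.

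The 22 genes past the threshold became 424 with DESeq2, 8 with limma-voom, 8 without robust estimation, 34 without a filter, 14 with the Kupffer covariate, 6 with the stellate covariate, 9 with the GC and length correction added after the data were seen, and 5 to 47 without 1 library. With the replicate number as a block there were 81, and Vcam1 was at −0.72 (adjusted p = 0.116, edgeR); the block changed no call among the 10 genes. Same-numbered libraries correlated at −0.11 to 0.17 in their deviations, 2 of 5 correlated best with their own number, and the labels give no pairing.

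Signs turned in 4 genes near 0. Eng was at 0.012 with upper quartile scaling, 0.021 with library totals, 0.0014 with the Kupffer covariate, 0.027 with the GC and length correction and −0.068 to 0.085 without 1 library. Gpr182 was at −0.0031 with limma-voom, −0.031, −0.042 and −0.11 with the endothelial, Kupffer and stellate covariates, and −0.054 to 0.13 without 1 library. Without 1 library Clec4g was at −0.17 to 0.0098 and Fcgr2b at −0.12 to 0.080, positive without GRMAC 2. Stab2, Lyve1, Kdr and Icam1 were positive and Pecam1 negative in all 22 alternatives. Vcam1 had 200 to 560 counts per library.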
